A study of Homo sapiens with 18 samples.

Results

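The interleukin-1 family was followed here through 8 genes of the 62754 in the gene count matrix, each matched by its symbol. They are the ligands IL1A, IL1B and IL18, the receptor antagonist IL1RN, the receptor chains IL1R1, IL1RAP and IL1RL1, and CASP1, which encodes the protease caspase-1. The family was taken up because IL1B was higher in siNT than in Mock in these same libraries, so the values that chose it are the IL1B levels of those groups. The question was which members share that pattern and which do not. For this reason every difference between siNT and Mock is given below as a description, with no test.

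The cells were EA.hy926, a human umbilical vein endothelial line that was made by fusion with the lung epithelial line A549. Mock cells had the transfection reagent and no siRNA. The siNT cells were given an siRNA without a target, and the siELMO1 cells siRNA that targets ELMO1, both at 10 nM. Cells were lysed at 48 h from transfection, called 0 h, or 24 h later in the presence of poly(I:C) at 1 μg/ml. Poly(I:C), an artificial RNA duplex, activates TLR3. Each of the 6 groups had 3 libraries, which the study's methods call biological replicates, 18 in all. According to the methods, the siELMO1 cells received a mixture of siRNAs against ELMO1, and all cells were starved of serum overnight before poly(I:C). No group without transfection reagent was analysed here, and no group was kept for 24 h without poly(I:C), so the time in culture and poly(I:C) cannot be told apart.

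Interleukin-1α and interleukin-1β both bind IL1R1, which then recruits the accessory chain IL1RAP, and the paired chains signal through MYD88, the IRAK kinases and TRAF6 to NF-κB. IL1RN binds IL1R1 without recruiting IL1RAP and so blocks the ligands. IL1RAP also serves as the accessory chain of IL1RL1 (ST2), the receptor of interleukin-33, and IL1RL1 has a short secreted form that acts as a decoy. Interleukin-1β and interleukin-18 are made as inactive precursors that caspase-1 cuts once an inflammasome has activated it, whereas the interleukin-1α precursor is already active. Endothelial cells are classical targets of interleukin-1, which induces chemokines and leukocyte adhesion molecules in them. The values here are transcript levels, and cleavage or secretion was not measured.

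In GRCh38 with the GENCODE 44 annotation, IL1A (ENSG00000115008.6, chr2:112773925-112784493, minus strand) and IL1B (ENSG00000125538.12, chr2:112829751-112836816, minus strand) are neighbours with 45257 bases between them. IL1RN (ENSG00000136689.20, chr2:113099315-113134016, plus strand) lies 262498 bases past IL1B. IL1R1 (ENSG00000115594.12, chr2:102064544-102179874) and IL1RL1 (ENSG00000115602.17, chr2:102311502-102352037) are both on the plus strand of chromosome 2. IL1RAP (ENSG00000196083.11) is at chr3:190514051-190659750 on the plus strand. IL18 (ENSG00000150782.12, chr11:112143253-112164096) and CASP1 (ENSG00000137752.25, chr11:105025397-105035250) are on the minus strand of chromosome 11. An unnamed protein-coding gene lies on the other strand of IL18, IL1R1-AS1 on the other strand of IL1R1, and IL18R1 overlaps IL1RL1 on the same strand. CASP1 and its neighbour CARD16 share near-identical sequence. The pseudogene GCNT1P3 and RN7SKP296 lie within IL1RAP on the same strand. The sources used here do not state that strand was used in counting, so the counts of IL18 and IL1R1 may hold reads of the opposite gene. Counts of IL1RL1, IL1RAP and CASP1 are less certain because of the same-strand overlaps and the shared sequence.

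The sequence just before the transcription start is shown for the 2 members that were higher in siNT than in Mock at both times, IL1B and IL1RAP, and for 2 that were not, IL1A and IL1RL1. RefSeq windows (GRCh38.p14) were found for 6 of the 8 members, and for each the start nearest the transcript with the most counts was taken. The window is the 250 bases before that start, printed only up to where a GENCODE transcript of the gene begins inside it. Capitals mark matches to the motifs GAS, which is TTC and GAA with 3 free bases between them, AP-1, which is TGA and TCA around 1 free base, and TATA, which is TATAAA. The motif NF-κB was GGG followed after 3 free bases by TTCC, and ISRE was GAAA repeated after 2 free bases. All were searched on both strands.
IL1B, chr2:112836817-112837029, minus strand: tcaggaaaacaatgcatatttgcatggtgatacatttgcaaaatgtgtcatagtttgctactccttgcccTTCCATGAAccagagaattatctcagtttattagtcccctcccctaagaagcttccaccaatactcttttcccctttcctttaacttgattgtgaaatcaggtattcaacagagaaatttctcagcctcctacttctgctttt
IL1RAP, chr3:190513835-190514050, plus strand: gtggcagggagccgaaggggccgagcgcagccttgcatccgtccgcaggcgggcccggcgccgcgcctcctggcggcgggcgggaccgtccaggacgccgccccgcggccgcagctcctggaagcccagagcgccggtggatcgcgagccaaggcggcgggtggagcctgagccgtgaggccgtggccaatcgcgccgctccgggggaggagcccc
IL1A, chr2:112784494-112784743, minus strand: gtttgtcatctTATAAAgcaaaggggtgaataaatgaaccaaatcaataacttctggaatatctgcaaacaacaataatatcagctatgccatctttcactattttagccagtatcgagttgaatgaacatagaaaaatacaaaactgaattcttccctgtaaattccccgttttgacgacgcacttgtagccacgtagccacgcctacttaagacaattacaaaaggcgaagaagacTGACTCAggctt
IL1RL1, chr2:102337007-102337147, plus strand: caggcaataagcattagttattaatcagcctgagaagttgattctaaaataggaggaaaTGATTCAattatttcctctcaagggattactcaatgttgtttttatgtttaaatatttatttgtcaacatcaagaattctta

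The IL1B window held 1 match, to GAS at −180, and the IL1RAP window held none of the 5 motifs. IL1A had TATA at −239 and AP-1 at −12, and IL1RL1 had AP-1 at −191, with positions counted back from the RefSeq start. Of all 35116 RefSeq windows of this length, 6.57% held GAS, 6.57% AP-1, 10.7% TATA, 5.67% NF-κB and 3.02% ISRE. IL1RAP, with 74.8% G and C over 250 bases, was richer than 89.2% of all windows. IL1A at 37.6% and IL1RL1 at 33.2% were among the poorest, with 8.94% and 3.61% of windows below them. IL1B lay close to IL1A, with 12.7% of windows below it, so IL1B and IL1RAP did not share a window rich in G and C. The IL1RL1 window lies inside the gene, upstream of its shorter transcript IL1RL1-202. Overlap of the printed windows with exons of transcripts that begin elsewhere was not checked. These are matches of letters only, and none of the windows was tested for binding.

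Libraries held 40.4 to 73.9 M estimated counts. Levels are given as CPM, counts scaled to the library total after TMM normalization, and levels of different genes are compared only as TPM, which also divides by transcript length. A gene was tested if it had at least 100 counts in total and reached 1 CPM in a library, which left 15167 genes and 6 of the 8 members. A member was called at a Benjamini-Hochberg adjusted p under 0.05 over those 15167 genes in edgeR's quasi-likelihood test. The target ELMO1 had a mean of 0.340 CPM in the siELMO1 libraries at 0 h, where Mock had 3.02 and siNT 2.94 CPM. At 24 h the means were 0.267, 2.32 and 3.31 CPM in that order. Of 11 endothelial markers, 10 were at 1 CPM or more in every group. Their summed level ran from 1275 to 1668 CPM in Mock, from 1718 to 1869 CPM in siNT and from 2011 to 2397 CPM in siELMO1. Of 7 epithelial markers 2 to 3 were at 1 CPM or more, with sums of 765 to 1087 CPM at 0 h and 484 to 627 CPM at 24 h. KRT8, at group means of 197 to 479 CPM, and KRT18, at 268 to 539 CPM, were high, whereas CDH1 and NKX2-1 were at 0 in all groups. Of 6 leukocyte markers 1 reached 1 CPM, and the sum was at most 8.40 CPM. The part of these marker levels in the results below was not tested.

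IL1B, the cytokine the family is best known for, was low before poly(I:C) and was the member with the highest level per length after it. At 0 h the 3 Mock libraries held 3.08, 2.67 and 2.64 CPM, the siNT libraries 10.2, 10.1 and 9.58 CPM and the siELMO1 libraries 5.15, 4.92 and 5.33 CPM. At 24 h the values were 132, 124 and 124 CPM for Mock, 227, 229.9 and 171 CPM for siNT and 132, 120.1 and 128 CPM for siELMO1. The 3 groups were apart from each other at 0 h, whereas at 24 h only siNT was apart and Mock and siELMO1 overlapped. Per length, IL1B rose from 4.88 ± 0.292 to 193 ± 8.81 TPM (SD, n = 3) in Mock and from 15.9 ± 0.268 to 320.3 ± 49.0 TPM in siNT. Nearly all counts fell on the transcript IL1B-201, with mean shares of 94.6% to 98.4% across the groups.

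IL1A, the ligand that needs no cleavage, shared the pattern of IL1B before poly(I:C) and lost it afterwards. It held 7.83, 8.46 and 6.64 CPM for Mock, 17.3, 18.5 and 18.2 CPM for siNT and 19.5, 20.6 and 20.0 CPM for siELMO1 at 0 h. At 24 h it was at 75.6, 70.3 and 66.1 CPM for Mock, 72.8, 68.6 and 65.0 CPM for siNT and 84.8, 81.0 and 86.1 CPM for siELMO1. At 0 h both siRNA groups lay above Mock, and at 24 h Mock and siNT overlapped while siELMO1 lay above both.

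IL18, the other ligand that caspase-1 cuts, had group means between 26.4 and 44.7 CPM. Its 0 h levels were 34.4, 29.1 and 31.0 CPM for Mock, 42.0, 45.4 and 46.8 CPM for siNT and 38.4, 36.1 and 37.9 CPM for siELMO1. After poly(I:C) it was at 34.2, 39.1 and 32.2 CPM for Mock, 41.8, 43.9 and 34.3 CPM for siNT and 30.1, 25.2 and 23.8 CPM for siELMO1. The siNT libraries were above Mock at 0 h and overlapped with it at 24 h, and the siELMO1 libraries at 24 h lay below the other 24 h groups. At 0 h IL18 had the highest TPM of the 8 members in all 3 transfections, with 77.5 ± 5.47 TPM in Mock, and at 24 h that place went to IL1B.

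CASP1, whose product cuts the precursors of interleukin-1β and interleukin-18, was 14.8, 15.1 and 14.2 CPM in Mock at 0 h. It was 18.6, 19.9 and 17.8 CPM in siNT and 14.9, 15.5 and 13.6 CPM in siELMO1 at that time. At 24 h CASP1 had 114, 118 and 127 CPM for Mock, 83.2, 81.2 and 104 CPM for siNT and 112, 114 and 112 CPM for siELMO1. In CPM the order of siNT and Mock thus turned over between the times. The siNT libraries were above Mock at 0 h and below it at 24 h, without overlap at either. In TPM these groups overlapped at both times. At 0 h Mock was at 23.0 to 23.6 TPM and siNT at 22.9 to 25.4 TPM. At 24 h they were at 148 to 179 and 109 to 156 TPM.

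IL1RAP, the accessory receptor chain, kept the pattern of IL1B at both times. It was at 11.8, 10.9 and 10.6 CPM for Mock, 39.6, 38.3 and 40.2 CPM for siNT and 26.9, 28.4 and 24.97 CPM for siELMO1 at 0 h. At 24 h the Mock libraries held 16.6, 13.4 and 14.1 CPM, the siNT libraries 28.1, 24.0 and 23.2 CPM and the siELMO1 libraries 28.6, 29.6 and 28.5 CPM. Its highest group was siNT at 0 h, so unlike IL1B it did not have its peak after poly(I:C).

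IL1RL1, the receptor of interleukin-33, did not share the pattern. Its libraries at 0 h were at 7.28, 7.57 and 7.79 CPM for Mock, 7.45, 5.93 and 7.80 CPM for siNT and 5.45, 5.52 and 5.84 CPM for siELMO1. At 24 h they were at 7.59, 9.28 and 5.47 CPM for Mock, 4.39, 4.32 and 2.85 CPM for siNT and 5.45, 5.60 and 4.09 CPM for siELMO1. At 0 h siNT overlapped with Mock, and at 24 h it lay below it.

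**Figure D1:**
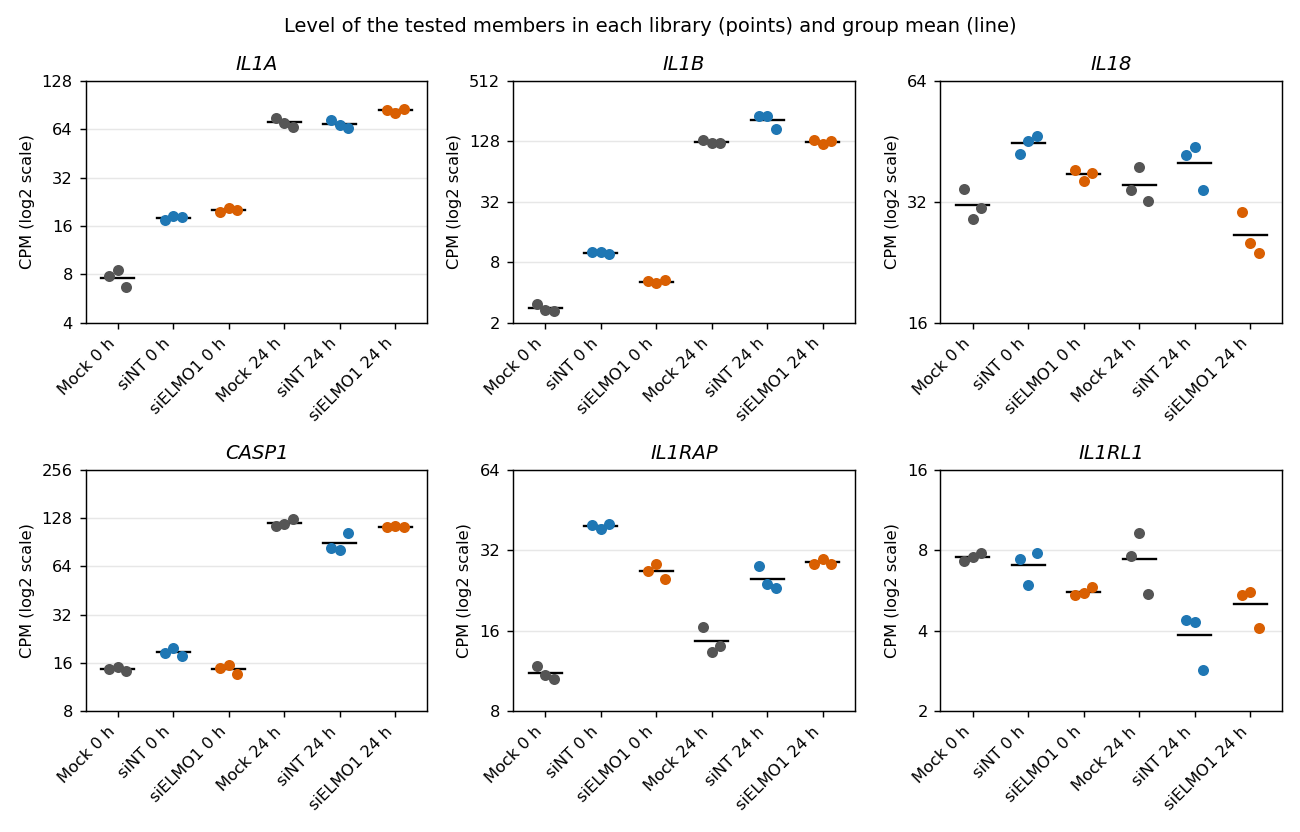
CPM of the 6 tested members (vertical axis, log2 scale, one panel each) in the 18 libraries, with Mock in grey, siNT in blue and siELMO1 in orange; points are libraries and lines group means. IL1B and IL1RAP have every siNT library above every Mock library at both times, IL1A, IL18 and CASP1 at 0 h, and IL1RL1 at neither.

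IL1RN and IL1R1 did not pass the level filter and are given as counts. IL1RN, the antagonist, held 0 counts in the Mock libraries at 0 h and 20, 36 and 33 at 24 h. In siNT it held 0, 3 and 0 counts and then 8, 14 and 9, and in siELMO1 3, 0 and 0 and then 5, 3 and 11. The Mock libraries at 24 h were above all others. Their mean CPM was at least 12.4-fold higher than at 0 h, taking 3 counts per library as the limit that a count of 0 allows. Between 24 h and 0 h the ratio was 11.8 in siNT, with an exact 95% interval of 3.69 to 60.5 for counting error, and 5.47 in siELMO1 (1.61 to 28.9). The estimated counts are larger than the read pairs the study's methods give per library, so these intervals and the limit of 3 counts are narrower than the sequenced fragments allow.

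IL1R1, the chain that binds interleukin-1 itself, held 0, 3 and 1 counts in Mock at 0 h and 14, 11 and 25 at 24 h, a ratio of 14.6 (5.36 to 55.6). It held 0, 3 and 0 counts in siNT at 0 h and 0 in all 3 siNT libraries at 24 h. In siELMO1 the counts were 0 in all libraries at 0 h and 3, 5 and 0 at 24 h. The 3 Mock libraries at 24 h were therefore the only ones with more than 5 counts of this receptor. In siNT a count of 0 allows 3 counts per library, and levels below that were not detectable at this depth. At 24 h siNT was below Mock without overlap for both genes, the opposite of IL1B. With the filter filterByExpr, which keeps both, the poly(I:C) response was called for IL1RN in Mock and siNT and for IL1R1 in Mock. Without any filter the IL1R1 call was lost and both IL1RN calls were made.

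**Figure D2:**
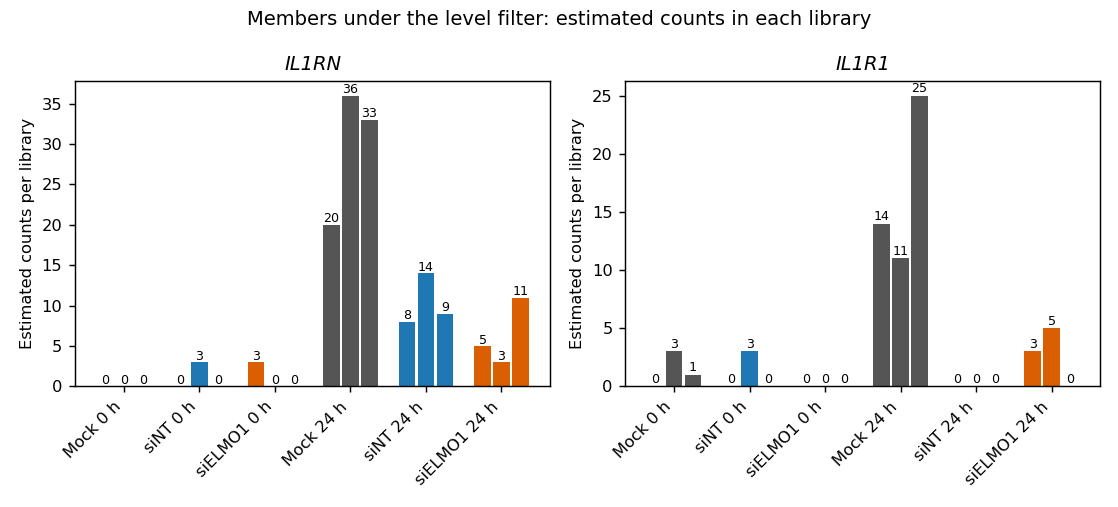
Estimated counts per library (vertical axis, linear from 0) of IL1RN and IL1R1, with 3 bars for the 3 libraries of each group and the count printed above each. The Mock libraries at 24 h hold 20 to 36 counts of IL1RN and 11 to 25 of IL1R1, and no other library holds more than 14 of either.

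At 0 h, 5 of the 6 tested members were higher in siNT than in Mock, counted as all siNT libraries above all Mock libraries in CPM. Among all genes 27.6% were called higher and 24% lower, which counts by adjusted p and not by overlap of libraries. The share of all genes without overlap was not computed. As the family was chosen on this contrast, nothing is read from the count of members. The log2 fold changes were 1.83 for IL1B (SE 0.11), 1.83 for IL1RAP (SE 0.08), 1.23 for IL1A (SE 0.08), 0.51 for IL18 (SE 0.10) and 0.35 for CASP1 (SE 0.08). For each of these, all 3 siNT libraries were above all 3 Mock libraries. IL1RL1 had −0.10 (SE 0.18), with overlap. IL1B and IL1RAP thus moved by nearly the same factor, 3.56 and 3.55. At this time the 6 leukocyte markers summed to 4.13 to 4.30 CPM in siNT and 1.82 to 2.90 CPM in Mock, and mitochondrially encoded genes took 1.71% to 2.13% and 1.31% to 1.44% of counts. The part of these differences in the result was not tested.

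At 24 h, 2 tested members had all siNT libraries above Mock in CPM and 2 had all below. Among all genes 25.2% were called higher and 24.9% lower, again by adjusted p and not by overlap. The share of all genes without overlap was not computed here either, and nothing is read from these counts. IL1B had a log2 fold change of 0.72 (SE 0.08) and IL1RAP 0.77 (SE 0.08). CASP1 had −0.42 (SE 0.08) and IL1RL1 −0.95 (SE 0.19), again without overlap of libraries in CPM. IL1A, at −0.04 (SE 0.07), and IL18, at 0.19 (SE 0.10), overlapped. Of the tested members, IL1RAP alone was therefore above Mock beside IL1B at both times. The 2 genes differed in their course, since IL1B rose with poly(I:C) in both transfections and IL1RAP moved up in Mock and down in siNT.

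Poly(I:C) raised IL1B, IL1A and CASP1 in all 3 transfections, and the other 3 tested members moved by less than 2-fold where they moved at all. In Mock, 4 of 6, IL1B included, were higher and 0 lower, where 30.7% of all genes were higher and 29.6% lower. IL1B rose 45.3-fold (log2 fold change 5.50, SE 0.11), with all libraries higher. It is given without a test because its Mock values took part in the choice of the family. Nothing is read from its place in the count. IL1A rose 9.25-fold (log2 fold change 3.21, SE 0.08, adjusted p = 4.5e-16, edgeR) and CASP1 8.12-fold (3.02, SE 0.08, adjusted p = 2.3e-15). IL1RAP rose by 0.40 on the log2 scale (SE 0.08, adjusted p = 5.1e-04). IL18 at 0.16 (adjusted p = 0.18) and IL1RL1 at −0.02 (adjusted p = 0.93) overlapped between the times.

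In siNT, 3 of 6 members, IL1B included, were higher after poly(I:C) and 2 lower, where 28.6% of all genes were higher and 25.2% lower. IL1B rose 21.0-fold (log2 fold change 4.39, SE 0.10), with all libraries higher. It is given without a test because its siNT values took part in the choice, and its place in the count carries nothing. CASP1 rose 4.77-fold (log2 fold change 2.25, adjusted p = 2.0e-13, edgeR) and IL1A 3.82-fold (1.94, adjusted p = 4.2e-13). Both receptor chains fell, IL1RAP by 0.65 (SE 0.08, adjusted p = 2.6e-06) and IL1RL1 by 0.87 (SE 0.19, adjusted p = 7.6e-04). IL18 had −0.16 (SE 0.10, adjusted p = 0.18). In a bulk sample, fewer cells with a transcript and less of it per cell cannot be told apart.

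In siELMO1, 3 of 6 members were higher and 1 lower, where 28% of all genes were higher and 26.9% lower. IL1B rose 24.6-fold (log2 fold change 4.62, SE 0.10, adjusted p = 2.1e-16, edgeR), CASP1 7.69-fold (2.94, adjusted p = 4.8e-15) and IL1A 4.19-fold (2.07, adjusted p = 1.2e-13). IL18 fell by 0.51 (SE 0.10, adjusted p = 3.7e-04), in all 3 libraries. IL1RAP had 0.11 (SE 0.08, adjusted p = 0.27), with all libraries higher, and IL1RL1 −0.15 (SE 0.19, adjusted p = 0.53), with overlap. None of the calls for poly(I:C) within a transfection was lost under any alternative tried.

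**Figure D3:**
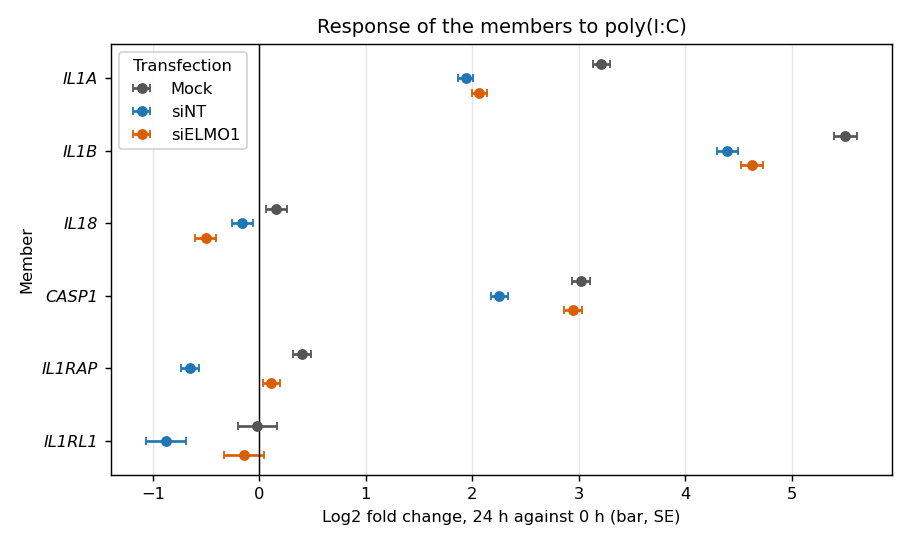
Log2 fold change from 0 h to 24 h of poly(I:C) (horizontal axis) of the 6 tested members in Mock (grey), siNT (blue) and siELMO1 (orange), with bars of 1 SE. IL1A, IL1B and CASP1 are well above 0 in every transfection, and IL1RAP lies at 0.40 in Mock and −0.65 in siNT.

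The responses were compared in the same model. Between siELMO1 and Mock, 0 members had a higher response in siELMO1 and 3 a lower one, with 13.8% and 14.6% of all genes in these directions. The log2 differences were −1.14 for IL1A (SE 0.10, adjusted p = 3.0e-07, edgeR), −0.66 for IL18 (SE 0.14, adjusted p = 0.0020) and −0.88 for IL1B (SE 0.14). IL1B is the other member of the 3 and is given without a test, since its Mock values took part in the choice of the family. For IL1A and IL1B the siELMO1 libraries started from a higher level at 0 h, and at 24 h IL1A was 1.19-fold and IL1B 1.00-fold the level of Mock. IL18 was not called in Mock (log2 fold change 0.16) and fell in siELMO1 (−0.51). IL1RAP at −0.29 (SE 0.12, adjusted p = 0.073) was not called, though it was with the replicate number as a block (adjusted p = 0.048) and without Mock 24 h replicate 2 (−0.35, adjusted p = 0.037). CASP1 had −0.08 (SE 0.11, adjusted p = 0.65) and IL1RL1 −0.13 (SE 0.26, adjusted p = 0.77).

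Between siELMO1 and siNT, 3 members had a higher response in siELMO1 and 0 a lower one, with 16.7% and 17.8% of all genes in these directions. The differences were 0.76 for IL1RAP (SE 0.11, adjusted p = 5.4e-05, edgeR), 0.69 for CASP1 (SE 0.11, adjusted p = 1.2e-04) and 0.73 for IL1RL1 (SE 0.26, adjusted p = 0.041). The call of IL1RL1 was lost with filterByExpr (adjusted p = 0.055), without a filter (adjusted p = 0.068) and with any of 8 of its 12 libraries left out. Those are siNT 0 h replicates 1 and 3, all 3 siELMO1 libraries at 0 h, siNT 24 h replicate 3 and siELMO1 24 h replicates 1 and 2, and the value was lowest without siNT 24 h replicate 3 (0.55, adjusted p = 0.10). IL1A at 0.13 (SE 0.10, adjusted p = 0.35) was not called, and IL1B had 0.23 (SE 0.13), given without a test. IL18 at −0.34 (SE 0.14, adjusted p = 0.071) became a call without siNT 24 h replicate 3 (−0.44, adjusted p = 0.016) or siELMO1 24 h replicate 1 (−0.45, adjusted p = 0.020).

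Between siNT and Mock the difference of responses is a description. All 6 values were below 0, with a median of −0.95 beside −0.01 over all genes. The share of all genes below 0 was not computed. As the family was chosen on siNT against Mock, nothing is read from this count. By adjusted p, a rule not used for the members here, 15% of all genes were called higher and 16% lower. The log2 differences were −1.27 for IL1A, −1.11 for IL1B, −1.05 for IL1RAP, −0.86 for IL1RL1 and −0.77 for CASP1, with IL18 at −0.32. IL1B therefore had the higher level in siNT at both times but the smaller fold response.

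Before poly(I:C), siELMO1 shared part of the siNT pattern. At 0 h, 4 of 6 members, IL1B included, were higher and 0 lower in siELMO1 than in Mock, where 27.9% of all genes were higher and 22.4% lower. IL1A was higher by 1.39 on the log2 scale (SE 0.08, adjusted p = 7.8e-11, edgeR) and IL1RAP by 1.27 (SE 0.08, adjusted p = 8.2e-10). IL1B had 0.88 (SE 0.12), with all libraries higher, and is given without a test because its Mock values took part in the choice, so nothing is read from its place in the count. IL18 was higher by 0.25 (SE 0.10, adjusted p = 0.045). This call was lost with plain library totals instead of TMM (0.17, adjusted p = 0.17), with filterByExpr (adjusted p = 0.066), without a filter (adjusted p = 0.19) and with any library but Mock replicate 1 left out. It was at 0.16 (adjusted p = 0.25) without Mock 0 h replicate 2. CASP1 was at −0.00 (SE 0.08, adjusted p = 0.98). IL1RL1, at −0.43 (SE 0.19, adjusted p = 0.062) with all siELMO1 libraries below Mock, passed with DESeq2 (adjusted p = 0.035), limma-voom (0.047), library totals (0.028) and a fit of these groups alone (0.0042).

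Against siNT at 0 h, 0 members were higher and 4, IL1B included, lower in siELMO1, where 31.3% of all genes were higher and 31.3% lower. IL1B, whose high siNT level chose the family, is given without a test, at −0.95 (SE 0.10), with all libraries lower, and nothing is read from its place in the count. IL1RAP was lower by 0.56 (log2 fold change −0.56, SE 0.08, adjusted p = 9.9e-06, edgeR) and CASP1 by 0.35 (log2 fold change −0.35, SE 0.08, adjusted p = 0.0011). IL18 had −0.26 (SE 0.10, adjusted p = 0.033), a call that was lost without siNT replicate 2 or 3 or siELMO1 replicate 2 or 3, with adjusted p up to 0.10 without siNT replicate 3. IL1A had 0.16 (SE 0.07, adjusted p = 0.075) and IL1RL1 −0.33 (SE 0.19, adjusted p = 0.13). The siELMO1 libraries thus lay between Mock and siNT for IL1B, IL18 and IL1RAP and at the level of Mock for CASP1. Mitochondrially encoded genes took 1.86% to 4.02% of counts in siELMO1 at 0 h, and their part in these differences was not tested.

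At 24 h against Mock, 2 members were higher and 2 lower in siELMO1, where 21.6% of all genes were higher and 22% lower. IL1RAP was higher by 0.98 (SE 0.08, adjusted p = 5.0e-08, edgeR) and IL1A by 0.25 (SE 0.07, adjusted p = 0.0079). IL18 had −0.41 (SE 0.10, adjusted p = 0.0028) and IL1RL1 −0.56 (SE 0.19, adjusted p = 0.021). The IL1RL1 libraries overlapped, and its call was lost without Mock replicate 2 (−0.37, adjusted p = 0.15), without siELMO1 replicate 3 (−0.43, adjusted p = 0.099) and in a fit of these groups alone (adjusted p = 0.055). IL1B had 0.00 (SE 0.08) and CASP1 −0.08 (SE 0.08, adjusted p = 0.40), although its 3 siELMO1 libraries were all just below Mock.

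At 24 h against siNT, 3 members were higher and 2, IL1B included, lower in siELMO1, where 26% of all genes were higher and 26.5% lower. IL1B had −0.72 (SE 0.08), given without a test as above, and its place in the count carries nothing. CASP1 was higher by 0.33 (SE 0.08, adjusted p = 0.0013, edgeR) and IL1A by 0.29 (SE 0.07, adjusted p = 0.0022), and IL18 had −0.60 (SE 0.10, adjusted p = 8.5e-05). IL1RAP had 0.20 (SE 0.08, adjusted p = 0.044), which was lost with library totals (0.16, adjusted p = 0.12), with filterByExpr (0.060), without a filter (0.069), in a fit of these groups alone (0.055) and with any library but siNT replicate 1 left out. It was lowest without siNT 24 h replicate 3 (0.15, adjusted p = 0.17). IL1RL1 had 0.39 (SE 0.19, adjusted p = 0.090) and was called without siELMO1 24 h replicate 3 (0.52, adjusted p = 0.040). The comparisons of this and the previous paragraphs share control libraries, so they are set side by side and not counted as separate support.

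**Figure D4:**
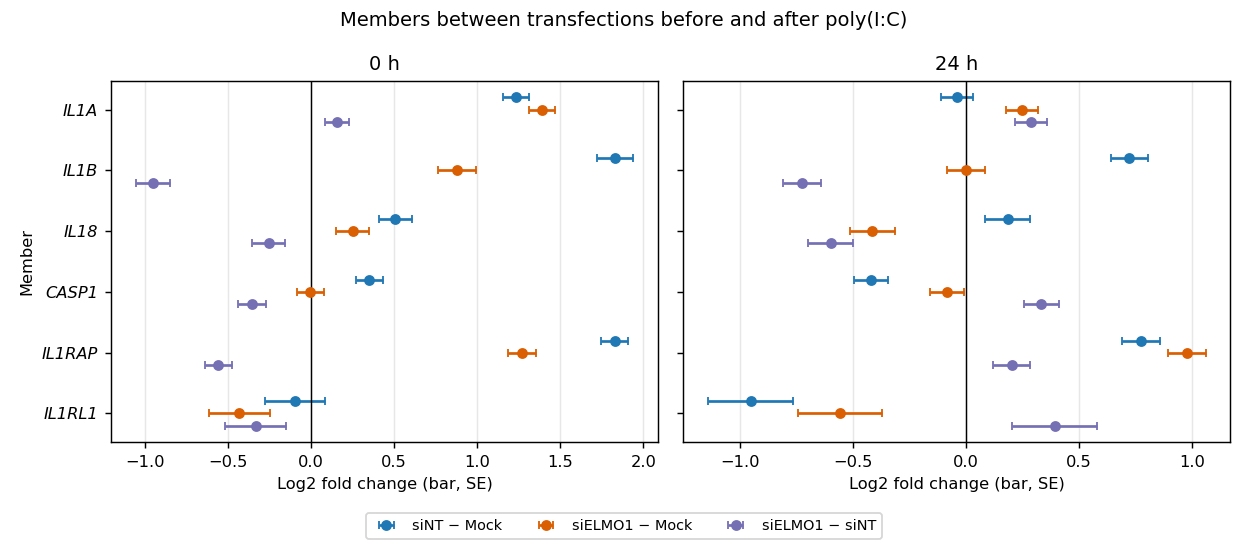
Log2 fold changes between transfections (horizontal axis) of the 6 tested members at 0 h (left) and 24 h (right), for siNT against Mock (blue), siELMO1 against Mock (orange) and siELMO1 against siNT (purple), with bars of 1 SE. IL1B and IL1RAP have siNT above Mock in both panels, and against siNT the siELMO1 level of IL1B is lower at both times while that of IL1RAP is lower at 0 h only.

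The transcript matrix shows which forms of the receptors were counted. IL1RAP has 10 coding transcripts, of which 4 have a coding length of 500 codons or more, as the membrane-bound chain does, and the shorter ones include secreted forms. The long ones took 90.0% ± 1.48 (SD, n = 3) of the counts on coding IL1RAP transcripts in Mock, 95.8% ± 0.521 in siNT and 92.4% ± 0.882 in siELMO1 at 0 h. At 24 h their share was 90.4% ± 1.34, 93.6% ± 0.412 and 95.1% ± 0.719. The siNT libraries were above the Mock libraries at both times, so the group with more IL1RAP also had the larger share of long transcripts. With counts divided by transcript length the shares were lower, 79.2% in Mock and 90.3% in siNT at 0 h. These shares were not tested. How counts were divided among the long transcripts varied between replicates, for example 1019, 1299 and 1742 counts on IL1RAP-201 in siNT at 0 h.

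**Figure D5:**
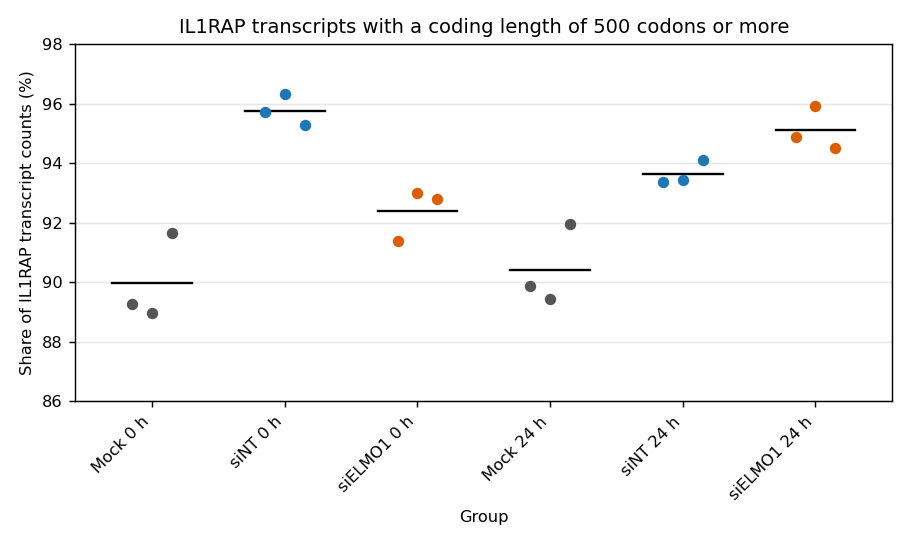
Share of the counts on coding IL1RAP transcripts (vertical axis, percent, from 86 to 98) on the 4 transcripts with a coding length of 500 codons or more, by library (points) and group mean (line). The siNT libraries are at 95.3% to 96.3% at 0 h, above the Mock libraries at 89.0% to 91.7%.

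IL1RL1 was counted almost wholly on short transcripts. IL1RL1-202 (ENST00000311734.6, 328 codons), which encodes the short secreted form, took 79.1% to 99.0% of counts as group means. The 1 transcript of 500 codons or more held 0 to 9 counts per library, of 163 to 598 on all coding transcripts. IL1RL1-202 starts 109 bases before the RefSeq start used above. In siELMO1 at 0 h a further short transcript, IL1RL1-204, held 77, 67 and 30 counts.

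CASP1 counts moved between transcripts within groups. CASP1-216, annotated as a target of nonsense-mediated decay, held 3301, 41 and 2742 counts in Mock at 24 h, 41, 2450 and 0 in siNT and 3756, 3872 and 0 in siELMO1. Gene totals in the same libraries differed by far less, as given above. Shares of CASP1 transcripts were for this reason not compared between groups. IL1A has a single annotated transcript, and IL18 was divided mainly between IL18-202, with mean shares from 44.1% to 51.3%, and IL18-204.

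Among the other genes of the pathway, taken from lists that were written with earlier results of these data known, few ligands were present. Of 8 other ligands and antagonists, 2 were tested. IL18BP, a soluble inhibitor of interleukin-18, rose from 4.34 ± 0.148 to 41.6 ± 8.25 CPM with poly(I:C) in Mock (log2 fold change 3.26, SE 0.21, adjusted p = 2.6e-10, edgeR), by 2.49 in siNT (adjusted p = 1.3e-08) and by 3.33 in siELMO1 (adjusted p = 3.4e-10). At 24 h it was higher in siELMO1 than in siNT, by 0.60 (SE 0.18, adjusted p = 0.011). IL18BP thus rose in all 3 transfections, and IL18 itself was called higher in none.

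Of 7 other receptors of the family, 3 were tested, and the decoy receptor IL1R2 was at 0 in all libraries, as was IL1RL2. IL18R1, the chain that binds interleukin-18, rose with poly(I:C) in Mock by 1.17 (SE 0.28, adjusted p = 0.0018, edgeR), in siNT by 0.83 (adjusted p = 0.021) and in siELMO1 by 1.45 (adjusted p = 3.3e-04). Its partner IL18RAP held at most 6 counts in any library. SIGIRR, an inhibitory receptor of the family, fell with poly(I:C) by 0.71 in Mock (SE 0.09, adjusted p = 2.0e-06), and had −0.07 in siNT (adjusted p = 0.56) and −0.16 in siELMO1 (adjusted p = 0.13). At 24 h its level was 28.6 ± 1.19 CPM for Mock and 32.8 ± 2.23 CPM for siELMO1, below the 56.3 ± 0.913 CPM of siNT. Against siNT the siELMO1 libraries had −0.78 (SE 0.09, adjusted p = 1.2e-06). In siNT against Mock, given as a description, SIGIRR had log2 fold changes of 0.33 (SE 0.09) at 0 h and 0.98 (SE 0.09) at 24 h. SIGIRR was thus also higher in siNT at both times, whereas IL18R1 had −0.23 (SE 0.29) and −0.56 (SE 0.28).

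Below the receptors, 14 of 16 genes of signal transduction were tested. Poly(I:C) raised 10 and lowered 2 of them in Mock (median log2 fold change 0.45, beside 0.01 over all genes), where 30.7% of all genes rose and 29.6% fell. It raised 8 and lowered 1 in siNT (median 0.25), where 28.6% rose and 25.2% fell, and raised 8 and lowered 2 in siELMO1 (median 0.18), where 28% rose and 26.9% fell. MYD88, the adaptor, rose by 2.52 in Mock, 1.89 in siNT and 2.00 in siELMO1, with adjusted p from 3.0e-15 to 2.6e-13 (edgeR). IRAK2 rose by 2.83, 2.18 and 2.03 (adjusted p from 4.4e-14 to 4.6e-12), and at 24 h it was at 596 ± 54.5 CPM for Mock, 307 ± 40.3 CPM for siNT and 495 ± 43.9 CPM for siELMO1. TAB3, a subunit of the TAK1 complex, was lower in siELMO1 than in siNT at 24 h, by 0.55 on the log2 scale (log2 fold change −0.55, SE 0.07, adjusted p = 7.8e-06).

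Of 17 inflammasome genes, 16 were in the matrix and 13 were tested. Poly(I:C) raised 8 and lowered 1 in Mock (median log2 fold change 0.97), raised 10 and lowered 2 in siNT (0.81) and raised 8 and lowered 0 in siELMO1 (0.62). The shares of all genes raised were 30.7%, 28.6% and 28%, and of those lowered 29.6%, 25.2% and 26.9%. AIM2, a sensor of cytosolic DNA, held at most 6 counts per library at 0 h and reached 13.4 ± 1.93 CPM for Mock, 5.67 ± 2.36 CPM for siNT and 8.98 ± 0.708 CPM for siELMO1 at 24 h. MEFV, which encodes pyrin, likewise held at most 6 counts at 0 h and reached 3.30 ± 0.355, 1.92 ± 0.0984 and 2.88 ± 0.393 CPM. AIM2 and MEFV passed the level filter only through 24 h libraries, so nothing is read from their place in the counts of genes raised. CARD8, a sensor that can activate caspase-1, did not pass the test for poly(I:C), with adjusted p of 0.052 in Mock, 0.51 in siNT and 0.36 in siELMO1. It was lower by 0.70 in siELMO1 than in siNT at 24 h (log2 fold change −0.70, SE 0.05, adjusted p = 4.3e-09). CARD16, a CARD-only relative of CASP1, was higher by 0.98 in the same comparison (SE 0.11, adjusted p = 6.1e-07), but it shares sequence with CASP1.

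Genes that interleukin-1 is known to induce in endothelium were, at the median, on the other side of Mock from IL1B in siNT at 24 h, and on the same side at 0 h. Of 10 such genes, 8 were tested. Poly(I:C) raised 8 in Mock, 7 in siNT and 8 in siELMO1, with 0 lower in each, where it raised 30.7%, 28.6% and 28% of all genes. CXCL1 had means of 0.617 CPM in Mock, 0.786 in siNT and 0.297 in siELMO1 at 0 h, below the 1 CPM of the filter. Nothing is therefore read from its place in these counts. In siNT against Mock, given as a description, their median log2 fold change was 0.36 at 0 h, where IL1B was at 1.83, and −2.55 at 24 h, where IL1B was at 0.72. Against siNT, all 8 were higher in siELMO1 at 24 h, where 26% of all genes were higher. Their median was 1.72 beside −0.01 over all genes, and IL1B was at −0.72. The list was written with earlier results of these data known, so nothing is read from the count of 8. IL6 was at 427 ± 15.7 CPM for Mock, 44.7 ± 2.15 CPM for siNT and 143 ± 27.0 CPM for siELMO1 at 24 h. The chemokine CXCL1 was at 127 ± 13.6, 7.37 ± 0.582 and 119.9 ± 22.5 CPM, and the growth factor CSF2 at 8.51 ± 3.59, 1.75 ± 0.143 and 28.7 ± 3.27 CPM. Against siNT at 24 h, siELMO1 was higher by 1.67 for IL6 (adjusted p = 3.2e-08, edgeR), 4.02 for CXCL1 (adjusted p = 7.9e-11) and 4.03 for CSF2 (adjusted p = 2.5e-09). IL6, CXCL1 and CSF2 were named for large changes in this comparison or in the Mock response, so their values are not separate support. These genes also respond to other stimuli of NF-κB, and interleukin-1 itself was not added or blocked in any group.

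Across the 18 libraries, the log2 CPM of IL1B was most like that of CHMP5 (Pearson r = 0.993), PRKD2 (0.988), CTSS (0.987), OAS1 (0.985) and EIF2AK2 (0.985), among 13608 genes with a mean of at least 1 CPM. Of the members, CASP1 was most like it (r = 0.968) and IL1RL1 least (r = −0.493), with IL1A at 0.962, IL1RAP at 0.143 and IL18 at −0.148. By Spearman correlation IL1A, at 0.773, came before CASP1, at 0.732. These correlations are a description over libraries that share 2 times and 3 transfections, and they were not computed within a time. IL1RAP, which had the difference of IL1B between siNT and Mock at both times, thus had a low correlation with it.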

How the data were processed

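Polyadenylated RNA of the 18 libraries was sequenced as stranded, paired-end libraries. According to the study's methods and the submitters' processing notes, the authors aligned reads with STAR to GRCh38 and quantified them with StringTie against GENCODE 44. Gene and transcript matrices were made from these estimates. The deposited estimated counts are whole numbers that are not normalized; the read length given to the conversion and the use of strand in counting are not given in the sources used here. Library totals were 40.4 to 73.9 M, and 3 counts, the limit that a count of 0 allows, were 0.0383 to 0.0752 CPM. Such limits and the exact 95% intervals cover counting error only, and are too narrow where estimated counts exceed read pairs.

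Samples were grouped by transfection and time from their labels. The members and gene lists were chosen with earlier results of these data known. Genes with at least 100 counts in total that reached 1 CPM in some library were kept, as in the paper (15167 genes). All 18 libraries were fitted in 1 model of the 6 groups with edgeR 4.0.16 (R 4.3.3) and TMM factors (0.958 to 1.06). Its quasi-likelihood test is two-sided, with Benjamini-Hochberg adjustment over all genes tested, and the step was tested on simulated data. The biological coefficient of variation was 12.2%. Log2 CPM for correlations used a pseudocount of 0.5. TPM was computed from the transcript counts and annotated lengths. Transcript shares used libraries with at least 100 counts of the gene. Named genes were all members, ELMO1 and, per list, at most 2 genes called with the largest change in the Mock response or in siELMO1 against siNT at 24 h with a mean of at least 1 CPM. The 5 genes most like IL1B were added. Alternatives were DESeq2 1.42.0, limma-voom (limma 3.58.1), library totals, filterByExpr, no filter, a replicate block, a fit restricted to the compared groups, and omission of each library in turn.

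Libraries with the same replicate number had every r over 0.1 in 1 of 15 pairs of groups, Mock and siNT at 24 h. Its r were 0.169, 0.231 and 0.145 over 11031 genes, and that comparison is given without a test. Of the comparisons tested at 24 h, Mock and siELMO1 had r of 0.008, 0.220 and 0.358, and siNT and siELMO1 had 0.008, 0.140 and 0.320.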

Additional observations from a re-analysis of the deposited data

Results flagged for a closer look

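The poly(I:C) response differed between transfections for several members, by a test of the difference itself unless stated. Between siELMO1 and Mock the log2 difference was −1.14 for IL1A and −0.66 for IL18. For IL1B it was −0.88, which is given as a description because its Mock values took part in the choice of the family. Between siELMO1 and siNT it was 0.76 for IL1RAP, 0.73 for IL1RL1 and 0.69 for CASP1, and the IL1RL1 value did not pass in most fits with a library left out. IL1RAP rose with poly(I:C) in every Mock library and fell in every siNT library, a log2 difference of −1.05, which was not tested because the family was chosen on siNT against Mock.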

How the results depend on the processing

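The fits were repeated for 72 results of single members, which gave 1044 values. Of these, 995 were counted as unchanged, 34 lost a call, 9 gained one, and 6 values of siNT against Mock moved by more than the spread between replicates. For siNT against Mock, unchanged meant a shift within that spread, and elsewhere the same side of the threshold. In 0 cases did a called value change direction, but values near 0 that were not called could change sign. For example, the IL1RL1 response in Mock ran from −0.21 to 0.16 with 1 library left out. The calls that changed are named beside the results. Counts of members called stayed within 1.5 times the count given under each alternative. With 1 library left out they ran from 3 to 4 for siELMO1 against Mock and against siNT at 0 h and against Mock at 24 h, from 4 to 5 against siNT at 24 h, and for the differences of responses from 3 to 4 against Mock and from 2 to 3 against siNT. With the replicate number as a block the only call that changed was the difference of the IL1RAP response between siELMO1 and Mock (−0.29). With counts divided by length, the share of long IL1RAP transcripts was 79.2% in Mock, 90.3% in siNT and 83.7% in siELMO1 before poly(I:C), and 79.7%, 86.1% and 89.0% after it, and with at least 30 counts the shares stayed the same. Of the 5 genes most like IL1B by Pearson correlation, 0 were among the 5 by Spearman correlation. Depth limits IL1RN and IL1R1, which are known only by counts of at most 36.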
